A study of Mus musculus with 16 samples.

Results

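ND1 (mt-Nd1) is the mitochondrial gene of a core membrane subunit of respiratory complex I, and its alleles are described here across 8 sorted cell subsets of the mouse femur. An allele is a position together with 1 of its 3 non-reference bases, named by the reference base, then its place in the mitochondrial sequence (counted from 1), then the non-reference base. All alleles at chrM:2751-3705 on the + strand (build GRCm38) were taken, which gave 2865 of 48897 alleles and 955 of 16299 positions. The annotated gene ends at position 3707, and its last bases, shared with the gene of the next tRNA, were not used. The stretch holds 318 codons that are read into protein, from the start codon GTG onward. Of the 2865 alleles 2005 are missense, 688 synonymous and 160 make a stop codon, while 9 change the start codon and 3 the stop codon.

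The cells came from femurs of 3-month-old mice in which both copies of PolG carry D257A, and no group without that change was analysed here. Fluorescence-activated sorting gave 8 subsets, called by their labels CD45, CD24, CD29 and CD24_CD29, Thy, 6C3 and Thy_6C3, and CD105, and each subset has a replicate 1 and a replicate 2 library. The libraries were made with Tn5 transposase, which cuts and tags open DNA (ATAC-seq) and reads mitochondrial DNA deeply because it carries no nucleosomes. The labels give neither the gates nor the mice behind a library, so the p-values cover no more than the spread between these libraries, and that spread may be technical. A number is shared by 8 libraries, and the labels do not say what it stands for. Sorting markers could not be checked, because the tables hold mitochondrial positions alone.

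Complex I takes electrons from NADH, passes them to ubiquinone and pumps protons across the inner mitochondrial membrane. ND1 sits in the membrane arm where it meets the matrix arm and forms much of the channel through which ubiquinone enters, and changes in human MT-ND1 are known from families with Leber hereditary optic neuropathy. The D257A change takes proofreading from the polymerase that copies mitochondrial DNA, so that copying errors build up, and a cell can hold normal and changed copies side by side (heteroplasmy). In sorted bulk cells, a higher allele fraction from more cells with the allele and one from more changed copies per cell cannot be told apart.

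The following stretches of the reference, 5′ to 3′ on the coding strand, hold the codons of the 10 ND1 alleles that differed between replicate numbers, with each affected codon in capitals, followed by the start of the gene with the start codon in capitals. They are shown because these alleles carry the main difference described below.
S110N (G3079A) and S112L (C3085T), chrM:3063-3101: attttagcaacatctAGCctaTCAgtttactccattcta
P75L (C2974T), chrM:2958-2990: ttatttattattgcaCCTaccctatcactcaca
M286T (T3607C), chrM:3591-3623: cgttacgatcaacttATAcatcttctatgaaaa
I27I (C2831T) and M31L (A2841C), chrM:2814-2858: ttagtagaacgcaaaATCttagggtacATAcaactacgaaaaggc
Y43C (A2878G), chrM:2862-2894: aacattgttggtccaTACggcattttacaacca
W173* (G3268A) and L174L (T3270C), chrM:3252-3287: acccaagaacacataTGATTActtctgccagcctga
I72V (A2964G), chrM:2949-2981: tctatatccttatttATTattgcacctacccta
Start codon, chrM:2751-2780: GTGttctttattaatatcctaacactcctc
In the first of these lines the codons of S110N and S112L stand a single codon apart. In the line of W173* and L174L the codons are adjacent, TGA reads as tryptophan in the vertebrate mitochondrial code, and G3268A turns it into the stop codon TAA.

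Mean coverage of mt-Nd1 ran from 5172 counts per position in CD24_CD29 replicate 2 to 57474 in CD29 replicate 1, and no ND1 position in any library had fewer than 3741. A count of 0 at the mean coverage allows fractions of up to 0.0580% in CD24_CD29 replicate 2, the shallowest library, and 0.00522% in CD29 replicate 1, the deepest (3 counts). ND1 was covered at 0.732 to 0.825 times the mean of the rest of the mitochondrial genome. Thy replicate 2 stood apart from the other 15 libraries. Its ND1 load, which sums the non-reference fraction at each position and averages over positions, was 1.12%, against 0.407% to 0.499% in the others, and A>C and T>G alleles in ND1 averaged 76.8 and 68.4 per 10000 bases, against at most 13.8 and 12.1. The rest of its mitochondrial genome had a load of 1.11%, close to that of ND1. Results that rest on this library are given with and without it.

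The comparison of replicate 1 with replicate 2 asked which ND1 alleles followed the replicate number across all 8 subsets. A serine-to-asparagine change at codon 110 (S110N) made up 15.6% to 21.1% of the reads at its position in the replicate 1 libraries and at most 0.702% in the replicate 2 libraries. In the replicate 2 libraries 3 other missense changes, S112L, P75L and M286T, stood at 2.16% or more in all 8 subsets and under 1% in all replicate 1 libraries. Of the 2326 ND1 alleles with a mean fraction of 0.05% or more, 10 passed edgeR's quasi-likelihood test (adjusted p under 0.05 over all 39143 alleles tested, term per subset), 2 of them higher in replicate 1 and 8 higher in replicate 2. Over the whole mitochondrial genome 184 alleles passed, 0.47% of those tested, with 0.217% higher in replicate 1 and 0.253% higher in replicate 2. In ND1 these shares were 0.0860% and 0.344%. Without the Thy subset edgeR also called 10 of 2173 ND1 alleles, against 163 of 36610 over the whole mitochondrial genome. DESeq2 called 27 ND1 alleles (1.16%) where it called 1.07% of all. ND1's share of 0.430% in edgeR was close to that background and ranked 9 among the 13 protein genes, so ND1 did not stand out in how many alleles differed.

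S110N had 15.6% as its lowest, 16.9% as its median and 21.1% as its highest fraction in the 8 replicate 1 libraries, and 0.154%, 0.276% and 0.702% in the 8 replicate 2 libraries. The groups were far apart, and the fitted log2 difference was 6.19 (edgeR adjusted p = 5.11e-06). Serine and asparagine are both polar, and asparagine is the larger of them. S112L, which puts the hydrophobic leucine in place of serine, had 0.0286%, 0.147% and 0.369% (lowest, median, highest) in replicate 1 and 5.84%, 7.84% and 10.1% in replicate 2. Its log2 difference was -5.92 (edgeR adjusted p = 8.84e-05), again with no overlap. The alleles of S110N and S112L lie 6 bases apart, close enough for reads of 100 bases to span both, but the tables count each position by itself and do not show whether any molecule carried both.

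P75L, which removes a proline, a residue that bends the protein chain, had 0.274%, 0.385% and 0.982% (lowest, median, highest) in replicate 1 and 3.09%, 4.18% and 5.01% in replicate 2, with a log2 difference of -3.28 (edgeR adjusted p = 8.95e-05). M286T, which puts the polar threonine in place of methionine, had 0.0234%, 0.219% and 0.353% in replicate 1 and 2.16%, 3.05% and 4.42% in replicate 2, with a log2 difference of -4.07 (edgeR adjusted p = 0.000556). For neither allele did the replicate 1 and replicate 2 libraries overlap. S110N, S112L, P75L and M286T were the 4 ND1 alleles that reached 1% throughout a number, in each of its 8 libraries, 1 of them in replicate 1 and 3 in replicate 2. These are 0.0349% and 0.105% of the ND1 alleles. Over the whole mitochondrial genome 0.108% of alleles reached 1% throughout replicate 1 and 0.121% throughout replicate 2, and 88 alleles reached it in at least 1 number (called widespread below).

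A second tier stood near 1% in replicate 2. M31L had 0.0572%, 0.0813% and 0.205% (lowest, median, highest) in replicate 1 and 0.698%, 1.34% and 1.72% in replicate 2, with a log2 difference of -3.89 (edgeR adjusted p = 8.33e-05). Y43C, which turns a tyrosine into a cysteine, had 0.0638%, 0.236% and 0.50% in replicate 1 and 0.776%, 1.31% and 1.53% in replicate 2, with a log2 difference of -2.45 (edgeR adjusted p = 0.0052). Neither allele overlapped between the numbers. M31L is an A>C change and the only transversion among the 10 alleles called, and it stood at 1% or more in 7 of 8 replicate 2 libraries. The synonymous L174L had 0.0215%, 0.219% and 0.433% in replicate 1 and 0.263%, 1.29% and 1.77% in replicate 2 (log2 difference -2.56, edgeR adjusted p = 0.000706). Its groups overlapped because CD24_CD29 replicate 2 had 0.263% while the other 7 replicate 2 libraries had 1.11% to 1.77%. L174L and I72V passed the test outside the rule for named alleles and were named after their values were seen.

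The other 3 called alleles reached 1% in no library. W173*, a stop codon that would cut ND1 short, had 0%, 0.0333% and 0.105% (lowest, median, highest) in replicate 1 and 0.199%, 0.482% and 0.780% in replicate 2, without overlap (log2 difference -3.56, edgeR adjusted p = 0.0187). This call was lost without CD45, CD105, CD24 or CD29 of either number, where the adjusted p rose to at most 0.0817, and it held in 12 of 20 alternatives. I72V, an exchange of similar residues, had 21 counts in 153015 reads over replicate 1 and 105 in 100117 over replicate 2 (edgeR adjusted p = 0.0377), with overlapping groups, and held in 4 of 19 alternatives. The synonymous I27I (C2831T) had 161 counts in 170888 reads over replicate 1 and 2 counts in 110473 over replicate 2, where 6 of 8 libraries had none (edgeR adjusted p = 0.0131). The highest I27I library was 0.440% in replicate 1 and 0.0106% in replicate 2, and the call held in 14 of 19 alternatives. The other 7 called alleles passed in all 21 alternatives run on them.

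**Figure D1:**
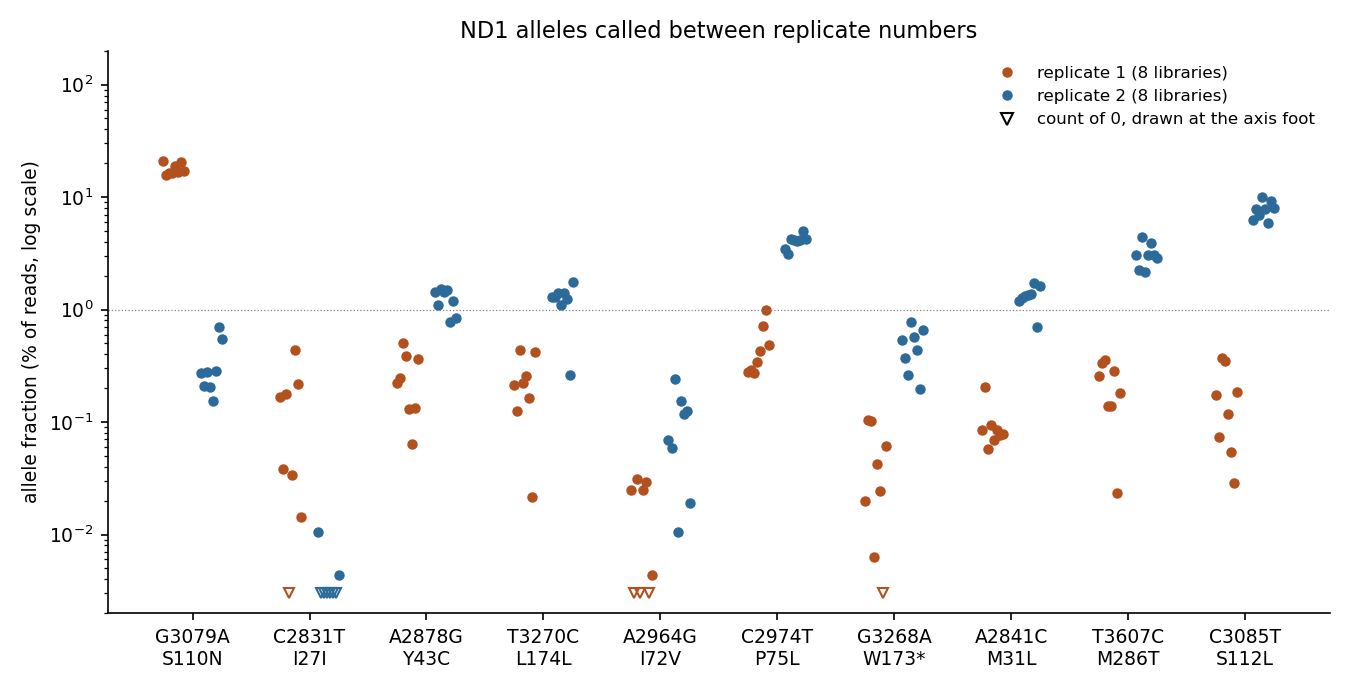
Allele fraction (percent of reads, log axis) of the 10 ND1 alleles called between replicate numbers, 1 point per library, with the 8 replicate 1 libraries left of the 8 replicate 2 libraries and counts of 0 as triangles at the foot of the axis. S110N lies at 15.6% to 21.1% in replicate 1 and under 1% in replicate 2, and S112L, P75L and M286T lie at 2.16% to 10.1% in replicate 2 and under 1% in replicate 1.

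The 10 called alleles were 7 missense, 2 synonymous and 1 stop-gained, and 6 of them changed the second base of their codon. Of the 2326 ND1 alleles tested, 70.3% were missense, 23.5% synonymous and 5.72% stop-gained, and 34.4% changed a second base. Transitions (A>G, G>A, C>T and T>C) made up 90.0% of the 10 called ND1 alleles, against 79.9% of the 184 called in the whole genome. Among the other 6 complex I genes the share of tested alleles called ran from 0.419% in ND4L to 0.646% in ND6, with 0.524% in ND2, 0.583% in ND3, 0.446% in ND4 and 0.431% in ND5. ND1 lay within that range. The median log2 difference was -0.12 over the 2326 ND1 alleles tested and -0.12 over all 39143.

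Some ND1 alleles lay near the threshold. M31I (A2843T), a second change at the codon of M31L, had 0.842%, 1.17% and 2.86% (lowest, median, highest) in replicate 1 and 0.106%, 0.361% and 0.742% in replicate 2. Its groups did not overlap, but it missed the threshold (edgeR adjusted p = 0.117). Codon 31 therefore held an allele that was more frequent in every replicate 1 library and an allele, M31L, that was more frequent in every replicate 2 library. S123L (C3118T), another loss of a serine, had 0.0333%, 0.193% and 0.921% in replicate 1 and 0.526%, 1.24% and 2.99% in replicate 2, with overlap (edgeR adjusted p = 0.0934). S123P (T3117C), which lies in the same codon, had medians of 0.798% and 0.797%. ND1 alleles whose 8 and 8 libraries did not overlap numbered 2 higher in replicate 1 (0.0698%) and 6 higher in replicate 2 (0.209%). Over all alleles the shares were 0.147% and 0.151%.

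Other alleles at high mean fractions did not follow the number. L89R (T3016G), which puts a charged arginine in place of leucine, had 0.770%, 0.859% and 1.16% (lowest, median, highest) in replicate 1 and 0.679%, 0.783% and 1.85% in replicate 2, the highest being Thy replicate 2. The synonymous T8T (A2774T) had 0.426%, 0.939% and 1.07% in replicate 1 and 0.226%, 0.755% and 1.66% in replicate 2, and the synonymous G244G (A3482G) had medians of 0.688% and 0.746%. All 3 had an edgeR adjusted p of 1 and overlapping groups. T8T still varied widely between single libraries, and its lowest and highest values were both in replicate 2, in CD24 and CD29.

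Within a replicate number, the most frequent alleles also varied between subsets. S110N was at 21.1% (20.6 to 21.6, exact 95% interval) in CD45 and 20.4% (19.7 to 21.1) in CD24_CD29, then at 19.1% (18.7 to 19.5) in CD105. The other 5 subsets followed, at 17% in CD29, 16.9% in CD24, 16.4% in Thy_6C3, 16.2% in 6C3 and 15.6% in Thy. Each overlapped the next in its interval, but CD29 (16.7 to 17.2) and Thy (15.2 to 16.1) did not overlap. S112L ran in another order, with 10.1% (9.54 to 10.6) in Thy_6C3 replicate 2 and 9.17% (8.42 to 9.96) in CD24_CD29 replicate 2 at the top. CD29, CD105 and Thy followed at 7.98%, 7.85% and 7.84%, and 6C3, CD45 and CD24 were lowest at 6.90%, 6.29% and 5.84%. CD45 thus held the highest fraction of S110N and the second lowest of S112L. Its interval overlapped that of CD24_CD29 for S110N and those of 6C3 and CD24 for S112L, so these ranks are not resolved. Each of these values is 1 library, and the intervals cover counting error only, because the reads carry no molecular identifiers.

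Counted at 1% or more with at least 5 counts, 210 ND1 alleles appeared in at least 1 of the 16 libraries and 62 in at least 1 of the 15 without Thy replicate 2. The 210 are 7.33% of the 2865 ND1 alleles, and over the whole mitochondrial genome 3487 of 48897 alleles reached this. Genome counts for the 15 libraries and for each number are not given here. Of the 62 ND1 alleles, 40 were transitions, with 16 T>C, 13 C>T, 10 A>G and 1 G>A (S110N itself), and 11 were A>T. ND1 can make 955 transitions and 1910 transversions. Of the 62, 44 were missense, 16 synonymous, 1 stop-gained and 1 in the start codon. The 40 transitions fell 17 times on codon base 1, 16 times on base 2 and 7 times on base 3. Replicate 1 libraries held 21 alleles in all, 16 of them in exactly 1 library, and replicate 2 libraries without Thy held 45, 33 of them in exactly 1. In those 15 libraries 4 alleles reached 1% in both numbers, which were the synonymous L175L (T3275C), T8T and G244G and the missense N124D (A3120G), each in 1 or 2 libraries of a number. L175L and N124D were chosen after their values were seen.

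**Figure D2:**
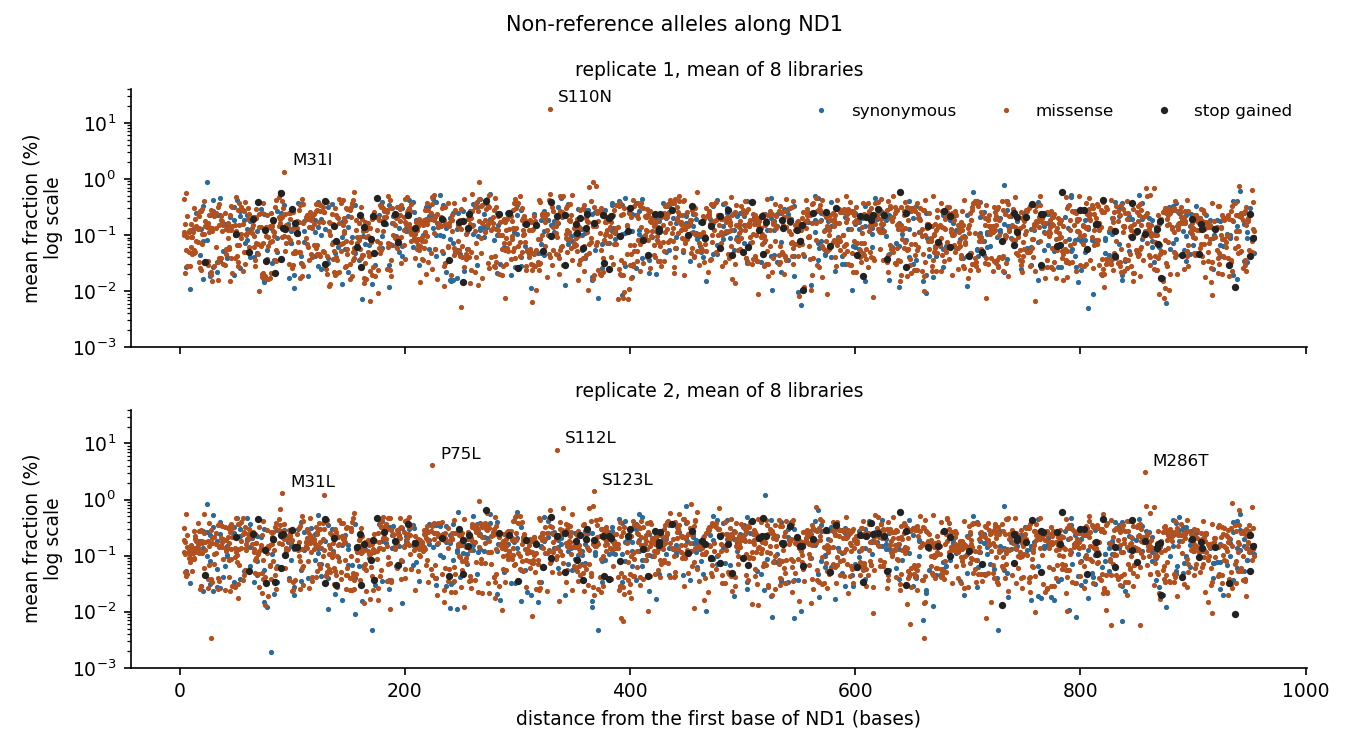
Mean fraction (percent, log axis) of every ND1 allele against its distance from the first base of the gene, with the mean of the 8 replicate 1 libraries above that of the 8 replicate 2 libraries. Most alleles form a band under 1% along the whole gene in both panels, and the alleles above it are S110N and M31I in replicate 1 and S112L, P75L, M286T, S123L and M31L among others in replicate 2.

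Restricted alleles were those counted in a single library of their number. CD24_CD29 held 9 in replicate 1 and 12 in replicate 2, and the other replicate 1 libraries held 0 to 3. In replicate 2, Thy_6C3 held 11, CD29 5, CD45, CD105 and CD24 1 each and 6C3 0, and Thy 149. The CD24_CD29 libraries were also the shallowest of their numbers over ND1, at 10118 and 5172 counts per position, and the part of depth in their counts was not tested. Restricted alleles in the rest of the genome are not counted here, so these numbers are not shown to be particular to ND1. H287Y (C3609T), a histidine-to-tyrosine change, led in CD24_CD29 replicate 1 at 1.64% (1.43 to 1.88, exact 95% interval), against 0.184% to 0.619% in the other replicate 1 libraries. It neighbours codon 286, where M286I (A3608T) led in CD29 replicate 1 at 1.05% (0.977 to 1.13).

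Other libraries had their own leading restricted alleles. In replicate 1 these were S267P (T3549C) at 1.43% in Thy, G244G at 1.25% in 6C3, L89R at 1.16% in CD24 and T167S (A3249T) at 1.02% in Thy_6C3. In replicate 2 they were the synonymous L150L (T3200C) at 2.07% in CD29, Y114F (A3091T) at 1.67% in Thy_6C3, I73V (A2967G) at 1.14% in CD24, P60L (C2929T) at 1.12% in CD45 and Y228H (T3432C) at 1.03% in CD105. The highest in Thy replicate 2 was the synonymous L100L (A3050C) at 2.12%, an A>C change, and 135 of the 157 ND1 alleles of that library were A>C or T>G. None was counted in CD45 or CD105 replicate 1 or in 6C3 replicate 2. Most of these alleles were also present below 1% elsewhere, so restricted refers to the 1% threshold and not to absence.

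Of the 160 possible stop-gained alleles of ND1, 10 reached 1% in at least 1 library (6.25%), against 7.33% of all ND1 alleles. Without Thy replicate 2 it was 1 (0.625%), against 2.16% of all. G2751C, which turns the start codon GTG into CTG, had 2.12% (1.76 to 2.52, exact 95% interval) in CD24_CD29 replicate 2 and 0.020% to 0.393% in the other replicate 2 libraries. S205* (C3364A) had 1.49% in Thy_6C3 replicate 2, and was the only stop-gained allele at 1% or more outside Thy replicate 2. The other 9 stop-gained alleles at 1% or more did so in Thy replicate 2 alone, and 6 of them were T>G. M91* (T3022G) reached 1.94% there and at most 0.695% elsewhere, M68* (T2953G) 1.52% and 0.288%, and M181* (T3292G) 1.33% and 0.243%. These 3 turn ATA into AGA, which the vertebrate mitochondrial code used here reads as a stop. All 9 thus rest on the library that stands apart. Over all 30 possible stop-gained transitions of ND1 the mean fraction was 0.0361% to 0.144% per library, while synonymous ones had 0.121% to 0.207%. These ranges overlapped, and in Thy replicate 1 alone the stop-gained mean was the higher, at 0.138% against 0.136%. Synonymous C>T transitions by themselves had 0.0790% to 0.137%. The classes were not matched for base change, and the difference between them was not tested.

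The test over all 8 subsets asked which ND1 alleles differed between sorted populations beyond the spread of the paired libraries. None of the 2326 ND1 alleles passed edgeR's quasi-likelihood test, and neither did any of the 39143 in the genome (0% called), while 125 ND1 alleles (5.37%) had an unadjusted p under 0.05, against 5.68% of all alleles. DESeq2 called 49 ND1 alleles (2.11%) where it called 2.16% of all alleles. The lowest adjusted p among ND1 alleles in edgeR was 0.557, for the synonymous S125S (C3125T). S125S was called by DESeq2 and in edgeR without Thy replicate 1, and in no other of its 20 alternatives. It had 0.0885% and 0.255% in CD105 (replicate 1 and 2), 0.213% and 0.132% in CD29, and counts of 0 in both CD24_CD29 libraries. In edgeR without Thy replicate 1, where Thy replicate 2 stands alone for its subset and is assumed to vary like the other groups, 558 of 2325 ND1 alleles were called (24.0%). In that setting 26.9% of all alleles were called, a larger share than in ND1.

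Each subset was also set against the mean of the other 7, and edgeR called no ND1 allele in any of the 8 contrasts. Over all alleles 0.00511% passed for Thy and 0% for every other subset. At an unadjusted p under 0.05 there were 32 ND1 alleles for CD45, 780 for Thy, 110 for 6C3, 118 for Thy_6C3, 25 for CD105, 126 for CD24, 174 for CD24_CD29 and 71 for CD29. The Thy count is 33.5% of the ND1 alleles tested and 33.5% of all alleles tested also had such a p. Without Thy replicate 2 it was 128 of 2186 ND1 alleles (5.86%), against 5.89% of all. For the other 7 subsets the ND1 share was 1.07% to 7.48%, against 0.953% to 7.17% of all alleles. The nearest allele was V314G (T3691G), with 0.387% and 0.713% in Thy (replicate 1 and 2) and 0.0424% to 0.135% in the other 14 libraries (edgeR adjusted p = 0.0655, 0.000317 to 0.187 over the alternatives). It passed without Thy replicate 1, where the Thy contrast called 1232 ND1 alleles (53.0%) and 55.6% of all alleles. V314G is a T>G change, which averaged 68.4 per 10000 over ND1 in Thy replicate 2 and 9.85 in Thy replicate 1. The part of that T>G level in V314G was not tested.

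In the other contrasts the nearest alleles were lower in the subset or weakly supported. I13T (T2788C) had 0 counts in both CD24_CD29 libraries, which allows up to 0.0343% in replicate 1 and 0.0647% in replicate 2, and 0.0541% to 0.453% in the other 14 (edgeR adjusted p = 0.152). The mean of the other libraries of the same number was at least 5.89-fold higher than that limit in replicate 1 and at least 3.13-fold higher in replicate 2. The synonymous M31M (A2843G) had 0.0398% and 0.0335% in Thy_6C3 and 0.127% to 0.546% in the others (edgeR adjusted p = 0.201). In measured fractions neither subset overlapped the other 14 libraries at its allele. For I13T, however, the limit of 0.0647% in replicate 2 lies above the lowest other library, at 0.0541%. The smallest edgeR adjusted p was 0.611 for CD24 (F280S, T3589C), 0.719 for 6C3 (G158A, G3223C), and 1 when rounded for CD45 (E206G, A3367G), CD105 (S125S) and CD29 (L200L, G3350A). The synonymous V87V (T3011C), named after its values were seen, came up in the CD24_CD29 contrast only with CD24_CD29 replicate 2 left out. A lone library then stands for that subset. It had 0% in CD24_CD29 replicate 1 and 0.998% in the library left out, against 0.123% to 0.736% in the other 14, so the subset's own libraries stood on opposite sides of the rest.

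The summed load asked whether ND1 as a whole carried more changes in some subsets. Its transition load was highest in 6C3, at 0.231% in replicate 1 and 0.197% in replicate 2, and in CD29, at 0.173% and 0.210%. CD45 had 0.159% and 0.148%, Thy 0.143% and 0.171%, CD24_CD29 0.152% and 0.147%, CD24 0.144% and 0.152%, Thy_6C3 0.142% and 0.153%, and CD105 0.144% and 0.150%. Both 6C3 libraries and both CD29 libraries lay above all others in ND1. Subsets held 82.6% of the variance (exact permutation p = 0.0340, one-sided, 0.136 adjusted over 4 measures), which did not pass the correction. Without the Thy subset the share was 85.8% (adjusted exact permutation p = 0.0432). In the rest of the genome 6C3 had 0.207% and 0.175% and CD29 0.154% and 0.179%, also high there, and relative to the rest the transition load of ND1 gave no difference between subsets past the threshold (28.5% of the variance, exact permutation p = 0.827, one-sided).

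The transitions split by kind. T>C and A>G together averaged 0.0832% to 0.176% per ND1 position over the libraries, and the 4 libraries of 6C3 and CD29 held 3 of the 4 highest values, with Thy replicate 2 at 0.118% beside CD29 replicate 1 at 0.117%. Subsets held 83.0% of the variance of this load (exact permutation p = 0.0249, one-sided, 0.0995 adjusted). C>T and G>A together had 0.0463% to 0.0603%, and subsets held 47.9% of their variance (exact permutation p = 0.469, one-sided). The whole ND1 load, at 0.407% to 0.499% in the 15 libraries other than Thy replicate 2, gave 50.0% (exact permutation p = 0.294, one-sided, 0.588 adjusted) and, without the Thy subset, 87.3% (adjusted exact permutation p = 0.0432). Without Thy it was lowest in CD24, at 0.413% and 0.407%, and highest in CD24_CD29, at 0.486% and 0.488%, and 6C3, at 0.499% and 0.466%. CD29 followed closely, at 0.465% and 0.492%. In the 15 libraries alleles under 1% gave 0.387% to 0.480% of it, and transitions 0.142% to 0.231%. C>A and G>T averaged 25.3 to 34.8 and 25.5 to 35.4 per 10000 bases there, against 9.05 to 18.5 for C>T and 15.1 to 34.1 for T>C. The whole load thus rested mostly on alleles under 1%, and the part of C>A and G>T in its shares was not tested. The load relative to the rest of the genome (36.1%, exact permutation p = 0.715) and the number of alleles at 1% or more (43.9%, exact permutation p = 0.686) gave no difference between subsets past the threshold.

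**Figure D3:**
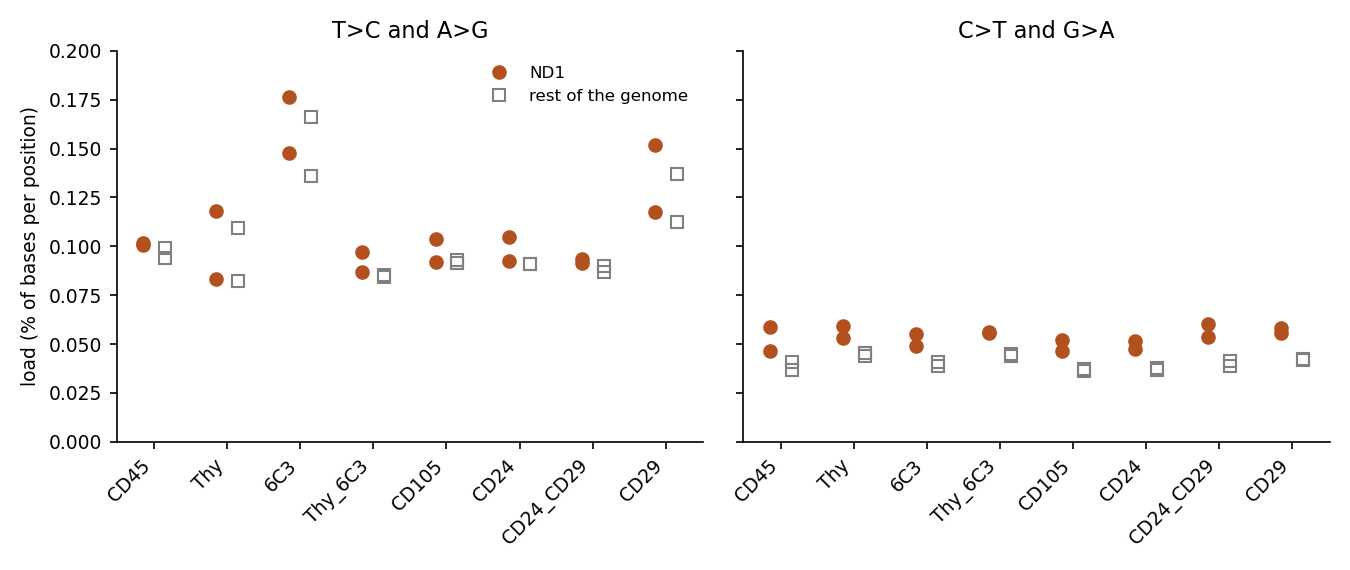
Load of ND1 (filled points) and of the rest of the mitochondrial genome (open squares) for T>C with A>G (left) and C>T with G>A (right), in percent of bases per position, 1 point per library and 2 per subset. The 6C3 libraries of ND1 are at 0.176% and 0.148% on the left, above all but 1 library of any other subset, and the C>T with G>A load of ND1 lies between 0.0463% and 0.0603% in all 16 libraries.

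ND1 carried slightly more transitions per position than the pooled other 12 mitochondrial protein genes. The log2 ratio averaged 0.11 over the 8 subsets (SD 0.0236, 1.08-fold), with ND1 higher in 8 of 8 subsets and in 16 of 16 libraries. The exact sign-flip permutation p was 0.00781, two-sided, the smallest this design can give, and 0.0117 adjusted over 3 tests. The ratio ran from 0.06 in Thy_6C3 replicate 1 to 0.18 in CD29 replicate 2. Without the 88 widespread alleles, dropped from all genes, the mean ratio was 0.04 (exact permutation p = 0.00781, two-sided) and 12 of 16 libraries were above 0. These 12 were all 8 of replicate 2, with a mean of 0.08, and 4 of 8 of replicate 1, with a mean of 0.0033, so the ratio was near 0 in replicate 1; the difference between numbers was not tested. The sign flips take the subsets as independent, although libraries of a number deviate together. ND1 had rank 3 of the 13 genes in mean transition load, at 0.161% in replicate 1 and 0.166% in replicate 2, behind ATP6 and ND3. Its rank was 5 in replicate 1 and 2 in replicate 2.

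**Figure D4:**
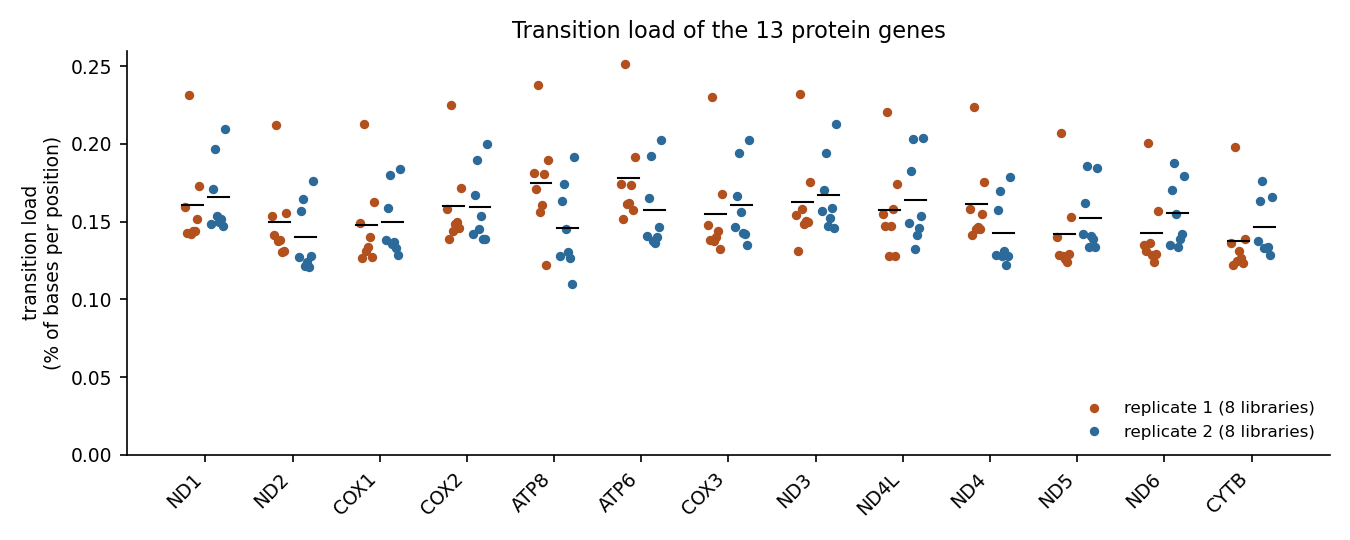
Transition load (percent of bases per position) of the 13 mitochondrial protein genes, 1 point per library, with replicate 1 left of replicate 2 in each gene and bars for the means of 8 libraries. ND1 averages 0.161% in replicate 1 and 0.166% in replicate 2, within the spread of the other genes, and the highest replicate 1 point of ND1 is 6C3 at 0.231%.

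Between the numbers, the ND1 transition load itself showed no difference past the threshold. The log2 ratio of replicate 1 over replicate 2 averaged -0.05 (SD 0.175 over 8 subsets), with replicate 1 higher in 3 of 8 (exact permutation p = 0.406, two-sided). By kind, the mean G>A fraction in ND1 had a median of 22.9 per 10000 in replicate 1 and 8.40 in replicate 2, and C>T had 11.1 in replicate 1 and 16.2 in replicate 2. The numbers did not overlap in either kind. S110N is itself a G>A change at 1 of the 110 positions of G in ND1, and S112L and P75L are C>T changes. These alleles were already known to differ between the numbers and enter both separations. The kinds without them were not compared. Without G3079A and C3085T the transition load was 0.124% to 0.214% in replicate 1 and 0.137% to 0.201% in replicate 2, and replicate 2 was higher in 7 of 8 subsets, against 5 of 8 with both alleles counted. P75L and M286T, both transitions higher in replicate 2, stayed in, so the removal did not treat the numbers alike. The difference between the numbers without G3079A and C3085T was not tested.

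Changes that alter the ND1 protein were compared with silent ones over all possible transitions of each class, so that no threshold entered. Nonsynonymous transitions averaged 0.147% to 0.246% per possible allele over the 16 libraries, and synonymous ones 0.121% to 0.207%. The log2 ratio of nonsynonymous over synonymous averaged 0.27 over the subsets (SD 0.058, 1.21-fold), higher in 8 of 8 subsets and 16 of 16 libraries (0.12 to 0.44). The exact sign-flip permutation p was 0.00781, two-sided, the smallest possible here, and 0.0117 adjusted over 3 tests. The excess rested on S110N, S112L, P75L and M286T, which are all missense transitions. The sign flips take the 8 subsets as independent, although these 4 alleles were shared by all of them. The 8 of 8 subsets and the p therefore largely repeat the same 4 alleles. Without the widespread alleles the ratio was 0.0126 (exact permutation p = 0.5, two-sided), with 11 of 16 libraries above 0 and a range of -0.17 to 0.18. Away from those 4 alleles, a difference between altering and silent transitions in ND1 was not detectable.

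**Figure D5:**
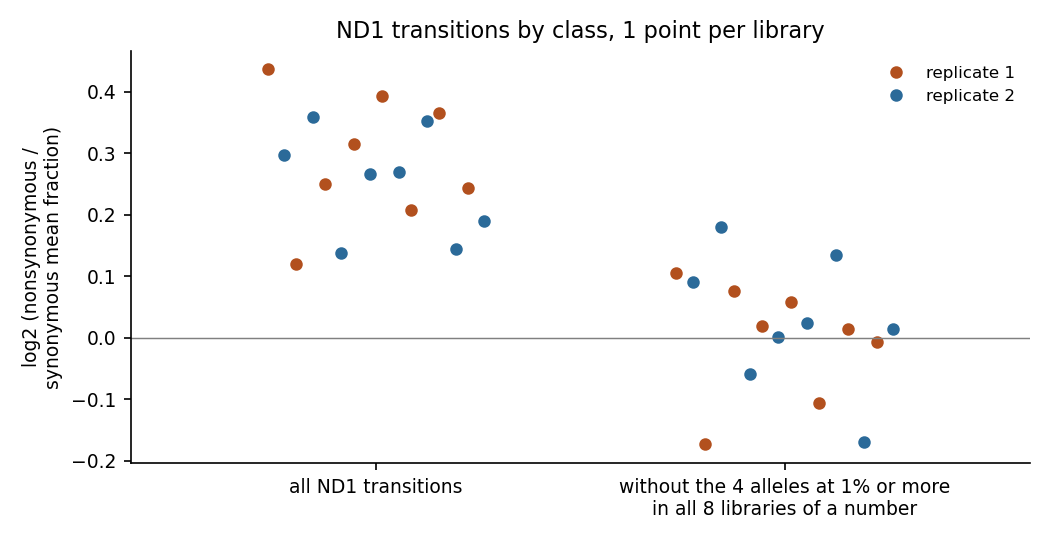
Log2 ratio of the mean fraction of nonsynonymous over synonymous transitions in ND1, 1 point per library, for all transitions (left) and without the 4 widespread alleles (right). All 16 libraries lie at 0.12 to 0.44 on the left and spread around 0, at -0.17 to 0.18, on the right.

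Transitions were also compared by codon base. Those at the second base averaged 0.174% to 0.293% per library, those at the first base 0.107% to 0.188% and those at the third 0.126% to 0.213%. All 4 widespread ND1 alleles change the second base, so the higher mean there includes them. The codon bases were not compared without these alleles. Nonsynonymous C>T alleles had 0.0994% to 0.147% in replicate 1 and 0.185% to 0.236% in replicate 2, while synonymous C>T alleles had 0.0790% to 0.137% in replicate 1 and 0.0843% to 0.121% in replicate 2. The nonsynonymous class, which holds S112L and P75L, separated the numbers and the synonymous class did not. Both alleles were already known to differ between the numbers, so this separation follows in part from them. The class without them was not compared.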

How the data were processed

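Mitochondrial DNA was read by bulk ATAC-seq in 16 libraries, with paired-end reads of 100 bases on a NovaSeq6000 per the labels' protocols. The authors deposited raw counts: how often each position was covered, and how often each of its non-reference bases was seen, in every library. Per the submitters' processing notes, the tools were BWA 0.7.17, cutadapt 2.10 and bcl2fastq 2.20 and the builds mm10 and GRCm38, with no roles. Not given in the sources used here are duplicate removal, quality filters and the treatment of nuclear mitochondrial copies, each of which can change a low fraction. Intervals (exact, Clopper-Pearson) and limits (3 counts) therefore cover counting error only.

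Fractions were counts over coverage. Codons came from the reference bases in the tables, the RefSeq annotation (GRCm38.p6) and the vertebrate mitochondrial code, and printed sequences are the tables' reference bases. Alleles were tested with edgeR 4.0.16 (quasi-likelihood, R 4.3.3) on paired columns per library, of non-reference and of reference counts, with a term per library and a term per subset (8 residual degrees of freedom) or also a term for replicate 1 (7). All 39143 alleles with a mean fraction of at least 0.05% entered, p-values were adjusted over all of them by the Benjamini-Hochberg method, and the threshold was 0.05. The step was checked on simulated counts. Variance shares between subsets used exact permutation over 2027025 pairings of the libraries, one-sided, adjusted over 4 measures. Mean log2 ratios used exact sign flips over 8 subset means, two-sided. Alternatives were DESeq2 1.42.0, other filters and thresholds, a replicate block, each library left out, and no Thy subset. Biopython 1.88, pandas 2.3.3, scipy 1.17.1, numpy 2.4.6 and matplotlib 3.10.9 under Python 3.11.15 did the rest.

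Replicate numbers pair the libraries in the data: deviations from the subset mean correlated between same-numbered libraries for all 28 pairs of subsets (Pearson r 0.111 to 0.469, median 0.258, over the tested alleles, which are not independent). Named were the ND1 alleles with the 6 highest means in each number, the highest restricted allele per library, the smallest p per subset test, the 5 largest folds in each direction between numbers, and the 5 highest stop or start codon alleles. The gene, lists and tests were chosen with earlier results of these data known.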

Additional observations from a re-analysis of the deposited data

Results flagged for a closer look

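Each value below is the highest or lowest of the 8 libraries of its replicate number and lies further from the nearest other library than Dixon's 95% critical value allows. In all 36 sets of 8 libraries were looked at, and chance flags about 1 in 20. Most came from Thy replicate 2 or the CD24_CD29 subset.

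Thy replicate 2 had an ND1 load of 1.12%, against 0.407% to 0.492% in the other replicate 2 libraries. It held 157 ND1 alleles at 1% or more, against 7 to 21, and transitions made up 7.01% of these, against 61.9% to 90.0%. In Thy replicate 1, M31L (A2841C) stood at 0.205%, against 0.0572% to 0.0941% in the other replicate 1 libraries, which is still below every replicate 2 library.

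CD24_CD29 replicate 1 held 12 ND1 alleles at 1% or more, against 1 to 5 in the other replicate 1 libraries, and its log2 ratio of ND1 over the other 12 protein genes in transition load was 0.17, against 0.06 to 0.10. In CD24_CD29 replicate 2 the synonymous L174L (T3270C) stood at 0.263%, against 1.11% to 1.77% in the other replicate 2 libraries. The coverage of this library over ND1 was the lowest, at 5172 counts per position.

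The ND1 transition load of 6C3 replicate 1 was 0.231%, against 0.142% to 0.173% in the other replicate 1 libraries. CD29 replicate 1 had a mean ND1 coverage of 57474, against 10118 to 31533. The synonymous I27I (C2831T) had 0.0106% in CD45 replicate 2, against 0% to 0.0044% in the other replicate 2 libraries, which are values of 0 or 1 count.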

How the results depend on the processing

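The 10 summary results kept their direction and side of the threshold, or a count within 1.5 times, in 199 of 211 alternatives. Without Thy replicate 1, where Thy replicate 2 is the lone library of its subset, the variance share between subsets passed the threshold for the ND1 load, the transition load and the allele number. Leaving out single libraries, the shares ran from 48.9% to 99.6%, 78.3% to 88.9% and 43.2% to 98.7% for these 3 measures. The subset test called 0 to 558 ND1 alleles, the 8 contrasts 0 to 1232 (0 but for the settings without Thy replicate 1 and, with 1 call, without CD24_CD29 replicate 2; without Thy replicate 1 the shares called were 24.0% and 53.0% of ND1 against 26.9% and 55.6% of all alleles), and the replicate number test 7 to 12. Without the Thy subset the share was 87.3% for the load and 85.8% for the transition load, both past the threshold. DESeq2 called 49 ND1 alleles between subsets (2.11%, against 2.16% of all) and 27 between numbers (1.16%, against 1.07% of all). At coverage of 5000 or more in every library, which left 563 of the 955 ND1 positions, the log2 ratio of the transition load between numbers turned to 0.0526 (exact permutation p = 0.430), with neither value past the threshold. Without the widespread alleles, an alternative chosen after seeing the data as were the splits by kind of transition and the load relative to the rest of the genome, the nonsynonymous over synonymous log2 ratio was 0.0126.

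With the replicate block (means of each number removed, subset labels permuted within numbers), the transition load gave 83.5% (exact permutation p = 0.0696, one-sided, 0.279 adjusted), and the pairing changed no call. Of 205 alternatives for the 10 called alleles, 28 lost a call, all for W173*, I72V and I27I, and none changed direction. Depth limits alleles under 0.0580% in the shallowest library.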
